A study of Homo sapiens with 6 samples.

Results

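The interleukin 1 family and its receptor signalling were followed here through 8 genes, of 11963 with a named probe set, in the human breast cancer line MDA-MB-231 and its isolates S1a and S1b. The 8 genes are the ligands IL1A, IL1B and IL18, the receptor antagonist IL1RN, the receptor subunits IL1R1 and IL1RAP, the adaptor MYD88 and the kinase IRAK1. They were selected on family membership, with earlier results of these arrays known, among them a higher IL1B and a lower IL1R1 signal in the isolates. Their differences from the parental line are therefore given as a description, with no p-value, and the number that passed the fit over all genes stands only beside the share of all genes that did. All probe sets annotated to the 8 symbols were taken, 16 in number.

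Total RNA was hybridised to 6 Affymetrix arrays, 2 for each of 3 groups. The groups were parental MDA-MB-231 cells, a mesenchymal-like triple-negative line, and the MDA-MB-231 populations S1a and S1b, each labelled as an isolated population of seeder cells, which are tumour cells that return from the circulation to a tumour. All cells were grown subconfluent in DMEM with 10% FBS, without another agent in the labels. S1a and S1b are 1 population each, so a feature of seeder cells and an accident of 1 isolation cannot be told apart. The labels call the arrays of a group biological replicates without naming separate cultures, so a p-value here reflects only how far these arrays scatter, which may be technical. RNA came from whole cultures, so fewer cells with a transcript and less of it per cell cannot be told apart.

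Interleukin 1 alpha and beta bind the receptor IL1R1, which then recruits the accessory protein IL1RAP. The joined cytoplasmic TIR domains bind MYD88, which gathers IRAK kinases and TRAF6 and leads to NF-kappa B and the stress kinases. IL1RN occupies IL1R1 without recruiting IL1RAP. IL1B and IL18 are made as precursors that caspase 1 cuts in inflammasomes, whereas IL1A is active as a precursor. In breast tumours interleukin 1 beta is best known as a product of macrophages and, in some cancers, of the tumour cells themselves.

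Among the 6 members bright enough to be tested, IL1B was the one with the highest signal in the isolates relative to parental cells and IL1R1 the one with the lowest. The 250 bases before the RefSeq start of each are shown so that the regulatory sequence of the opposed pair can be read beside their values. IL1B has 1 start in the RefSeq promoter table (GRCh38.p14) and lies on the minus strand of chr2:112836780-112837029. IL1R1 has 4, of which the farthest upstream is shown, on the plus strand of chr2:102104354-102104603. Capitals mark a match to a searched motif.
IL1B: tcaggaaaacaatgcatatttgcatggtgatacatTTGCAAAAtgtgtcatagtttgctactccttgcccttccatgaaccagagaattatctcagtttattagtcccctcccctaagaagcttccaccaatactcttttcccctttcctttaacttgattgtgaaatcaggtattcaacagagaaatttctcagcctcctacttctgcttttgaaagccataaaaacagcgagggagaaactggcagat
IL1R1: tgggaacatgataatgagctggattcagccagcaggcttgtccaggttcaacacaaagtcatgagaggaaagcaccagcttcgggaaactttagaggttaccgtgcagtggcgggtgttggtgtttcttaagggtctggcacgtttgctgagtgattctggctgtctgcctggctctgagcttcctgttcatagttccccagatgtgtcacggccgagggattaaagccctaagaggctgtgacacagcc

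Both strands of the 250-base windows were searched for the TATA box TATAAA, the AP-1 motif TGANTCA, the C/EBP motif TTGCNNAA and the degenerate NF-kappa B consensus. The IL1B window held 1 match, to C/EBP, from 215 to 208 bases before the start. Only exact matches were counted, so the cataaa near the end of the IL1B window was not taken as a TATA box. A C/EBP match was also present in 9.05% of all 35116 promoter windows of the table. The IL1R1 window shown held none of the 4 motifs. Another IL1R1 window held 2 matches to the letters of the TATA box, both on the opposite strand. They lay from 229 to 224 and from 124 to 119 bases before that start. The TATA box was present in 10.7%, the AP-1 motif in 6.57% and the NF-kappa B consensus in 9.96% of all windows. The IL1B window had a GC content of 40% and 1 CpG, and the IL1R1 window shown 52.4% and 6 CpG, where the median window had 58% and 11. The other IL1R1 windows differed widely, with 50% and 3 CpG, 39.6% and 6 CpG, and 76.8% and 31 CpG. These matches describe the letters only, and the arrays do not show which start was used.

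Each value below is a signal in array units on a linear scale, and the trimmed mean of the deposited signals was 500.2 on every array. Signals of different probe sets are not set against each other. A mean over the 6 arrays of 44 units, the 40th percentile of all probe sets, was the lower limit for testing. Of the 8 members, 6 had a probe set above it, and IL1A and IL1RN did not. Of the 16 probe sets, 8 passed. A gene was represented by its probe set with the highest mean, and differences are log2(signal + 3.949), which understates changes of dim genes.

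**Figure D1:**
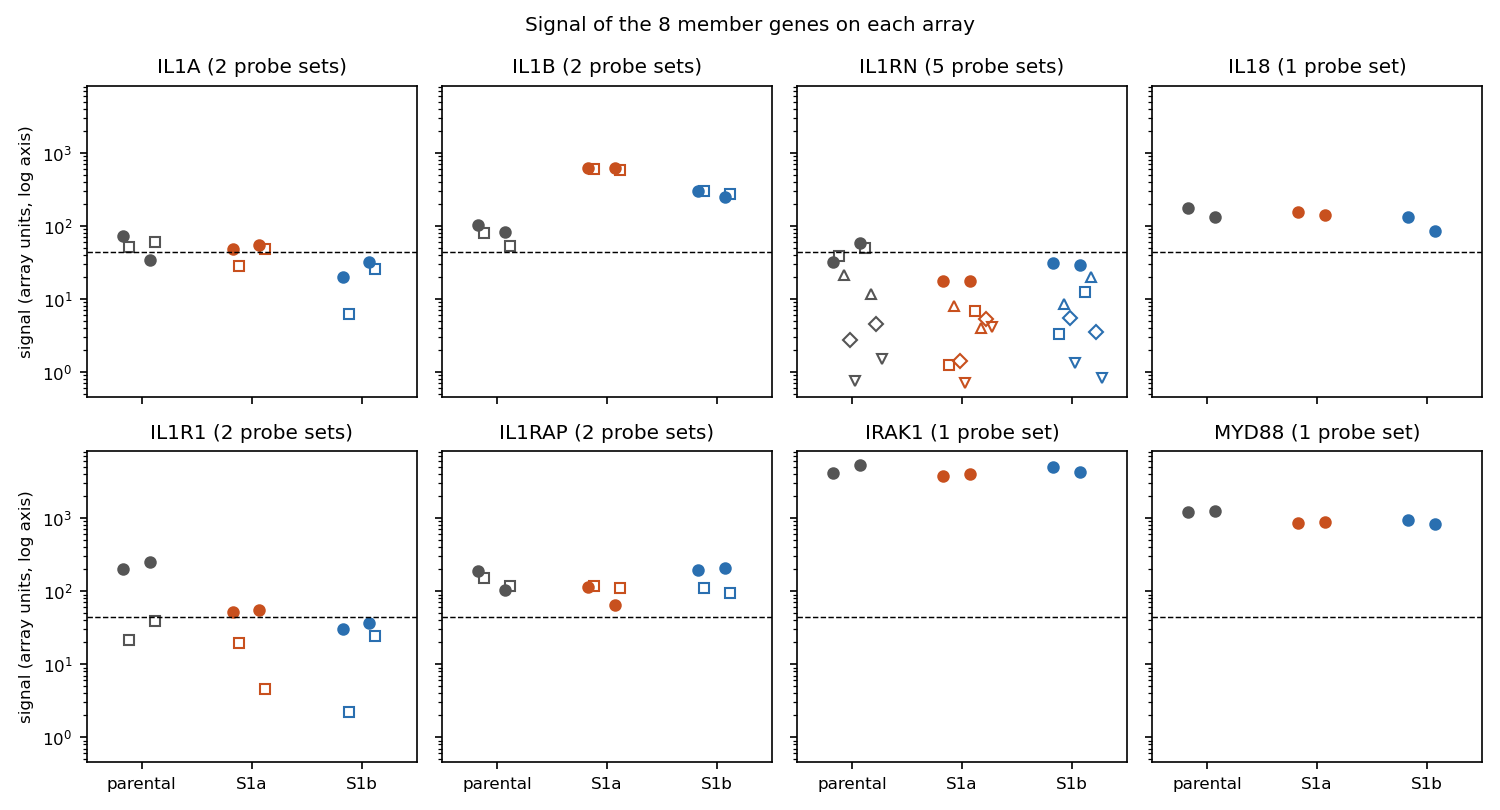
Signal of every probe set of the 8 genes on each of the 6 arrays (log axis, array units); filled circles are the brightest probe set of a gene, open symbols its other probe sets, and the dashed line is the limit of 44 units. IL1B lies higher on all 4 isolate arrays and IL1R1 (filled circles) and MYD88 lie lower, while IL1A and IL1RN scatter around or below the limit.

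Among the ligands, IL1B encodes the secreted inflammatory cytokine interleukin 1 beta. Its signal was 101 and 83.3 in parental cells, 618 and 628 in S1a and 297 and 246 in S1b. The 3 groups did not overlap, and S1b lay between parental and S1a. The mean was 92.4 ± 12.8 (SD, n = 2) in parental cells, 623 ± 7.42 in S1a and 271 ± 36.2 in S1b, which is 6.74-fold parental in S1a and 2.94-fold in S1b. The log2 difference of the isolate mean from parental was 2.11 ± 0.15 (SE).

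The other probe set of IL1B, 39402_at, gave 78.7 and 53.6 in parental cells, 605 and 587 in S1a and 297 and 275 in S1b. It ordered the groups in the same way, again without overlap. Its log2 difference of the isolates from parental was 2.6 ± 0.17. The probe sets 205067_at and 39402_at are separate measurements of the same gene on the same arrays and are not replicates.

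IL1A, the cell-associated alpha form, was dim, and the mean of its brighter probe set, 43.6 units, lay just under the limit of 44. Its brighter probe set gave 72.9 and 34.3 in parental cells, 48.6 and 53.9 in S1a and 20 and 32 in S1b. Parental and S1a arrays overlapped, and both S1b arrays lay below the other 4 and below 44 units. The other probe set, 210118_s_at, gave 50.6 and 60.9, then 28.6 and 48, then 6.24 and 25.3 in the same order of groups. On it all isolate arrays were below both parental arrays, and the values lay too near the limit for a fold to be given.

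IL18 is a ligand of the same fold that acts through its own receptor pair. Its signal was 175 and 134 in parental cells, 155 and 140 in S1a and 132 and 84.7 in S1b. Isolate and parental arrays overlapped, and the S1b arrays were the lowest pair. The isolate mean differed from parental by a log2 difference of -0.29 ± 0.23 (SE).

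The antagonist IL1RN had 5 probe sets, and all had a mean below 44 units. The one with the highest mean, 216243_s_at, gave 31.8 and 58.3 in parental cells, 17.8 and 17.6 in S1a and 31.1 and 28.9 in S1b. On 212657_s_at the parental arrays gave 39.1 and 49.3 and the isolate arrays between 1.23 and 12.5. On these 2 probe sets each isolate array lay below both parental arrays. On the other 3 (212659_s_at, 216244_at and 216245_at) isolate and parental arrays overlapped, with no value above 21.1. Parental array 2 exceeded 44 units on the first 2 of these probe sets, and no isolate array did on any of the 5.

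Of the receptor subunits, IL1R1, the signalling receptor for both interleukin 1 forms, was low in both isolates. Parental cells gave 201 and 248, against 51.4 and 55.2 in S1a and 30.1 and 36.9 in S1b. No group overlapped another, with parental highest and S1b lowest, and both S1b arrays lay under 44 units. Parental cells averaged 225 ± 33 (SD, n = 2), S1a 53.3 ± 2.72 and S1b 33.5 ± 4.79. Parental cells were thus 4.22-fold above S1a and at least 5.11-fold above S1b, where the dimmer side was set to 44 units. The fitted log2 difference of the isolate mean was -2.3 ± 0.27 (SE), in part from signals under that limit. The second probe set, 215561_s_at, was under 44 units on all 6 arrays, with parental values of 21.6 and 39.5 and isolate values from 2.23 to 24, and its groups overlapped.

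IL1RAP, the shared accessory subunit, did not move in 1 direction. Its brighter probe set, 205227_at, gave 187 and 103 in parental cells, 114 and 64.9 in S1a and 194 and 209 in S1b. The parental pair spanned a wide range that overlapped S1a, which held the lowest array, and both S1b arrays lay just above the higher parental one. The isolate mean differed from parental by -0.07 ± 0.29 on the log2 scale. The other probe set, 210233_at, gave 153 and 117, then 117 and 112, then 110 and 93.5, with the S1b arrays lowest, so the probe sets disagree about S1b.

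Below the receptor, the adaptor MYD88 was modestly lower in both isolates. Its signal was 1220 and 1270 in parental cells, 851 and 877 in S1a and 941 and 833 in S1b. Every isolate array lay below both parental arrays, and S1a and S1b overlapped. The log2 difference of the isolate mean was -0.51 ± 0.085 (SE), a 1.42-fold lower signal. It was -0.32 when each array was centred on its median, which moves the median gene from -0.026 to 0.165 in this contrast.

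IRAK1, the kinase that MYD88 recruits, had a high signal in every group. It gave 4100 and 5250 in parental cells, 3720 and 4060 in S1a and 4930 and 4310 in S1b. Isolate and parental arrays overlapped. The log2 difference was -0.13 ± 0.11.

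Of the 6 members above the limit, 3 passed limma's adjusted p of 0.05 against parental in the isolate mean, 1 higher (IL1B) and 2 lower (IL1R1 and MYD88). They did so where 46.2% of 7791 genes passed, 22.7% higher and 23.5% lower. Counted for each isolate by itself, 3 of the 6 passed in S1a, beside 39.2% of all genes, and 3 in S1b, beside 41.6%. These comparisons share the parental arrays, and as the members were chosen with this contrast known, nothing is read from the counts. With each array centred on its median the called genes were 71.3% higher, against 49.2% as reported, and the 3 members kept their direction. The median log2 difference of the 6 genes was -0.21, beside -0.026 over all genes.

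S1b was set against S1a to see where the populations differ. The members were taken by family and not by this contrast, but with earlier results of these arrays known. The p-values of this contrast may therefore not be independent of the choice. IL1B was lower in S1b by a log2 difference of -1.19 ± 0.17 (SE, 2 against 2 arrays, limma adjusted p = 0.00862), with S1a 2.29-fold above S1b and both S1b arrays below both S1a arrays. Of the 6 members tested it was the only one past the threshold, where 1.89% of all genes passed, 0.462% higher and 1.42% lower. The other IL1B probe set gave -1.05 ± 0.2 (limma adjusted p = 0.0344 when every probe set was tested by itself). The IL1B call ended without S1a replicate 1 (-1.2, limma adjusted p = 0.0935), without S1a replicate 2 (-1.18, 0.108), without S1b replicate 2 (-1.06, 0.11) and without the variance trend (-1.19, 0.116). The value stayed between -1.33 and -1.06 over 19 alternatives, of which 15 kept the call.

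For IL1RAP the S1b signal was 2.25-fold that of S1a on 205227_at, a log2 difference of 1.19 ± 0.33 that did not pass (limma adjusted p = 0.117). It passed with only the groups compared in the fit (limma adjusted p = 0.0299) and without parental replicate 1 (0.0355) or parental replicate 2 (0.0292). On 210233_at the difference was -0.17 with an interval from -0.72 to 0.38, so the direction rests on 1 probe set.

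The remaining members did not pass between the isolates. For IL1R1 (limma adjusted p = 0.4) both S1b arrays lay under 44 units, so S1a was at least 1.21-fold above S1b and no exact difference is given. IL18 differed by -0.46 with a 95% interval from -1.05 to 0.13. IRAK1 differed by 0.25, with an interval from -0.025 to 0.52. MYD88 differed by 0.035, with an interval from -0.18 to 0.25, which bounds any difference between the isolates more closely than for the other members.

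**Figure D2:**
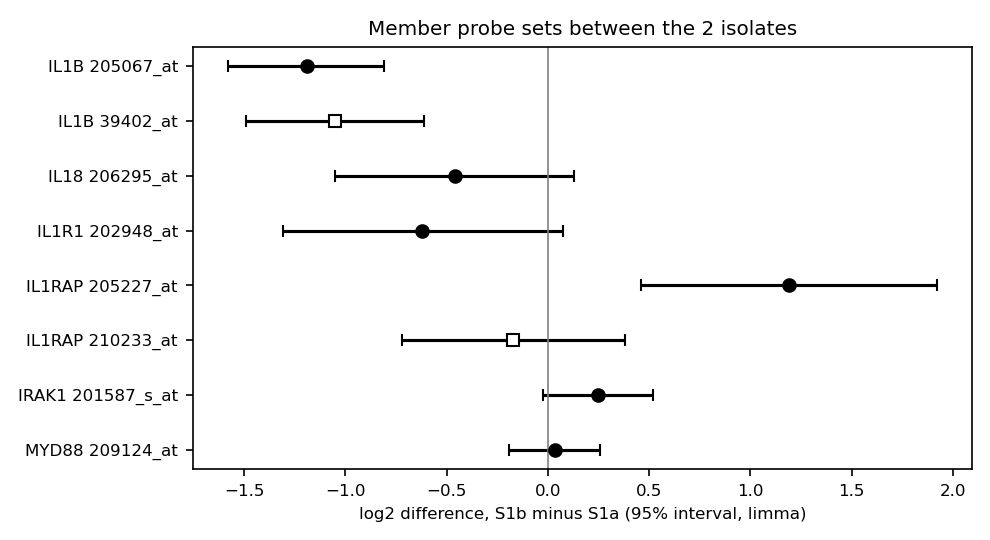
Log2 difference of S1b minus S1a for the 8 member probe sets above the limit (points, with 95% intervals from limma, 2 arrays against 2); filled circles are the probe sets that represent a gene. Both IL1B probe sets lie below 0, at -1.19 and -1.05, and the IL1RAP probe sets lie on opposite sides of 0. The IL1R1 point rests on S1b signals under the limit.

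Genes with profiles most like that of IL1B over the 6 arrays were looked for by the Euclidean distance between log2 signals centred on each gene's mean. The 5 nearest were APBA2 (a neuronal adaptor, distance 0.65), PSTPIP2 (0.86), PIK3CD (a catalytic subunit of PI3 kinase, 0.87), DUSP1 (a MAP kinase phosphatase, 0.87) and INHBB (an activin subunit, 0.88). DUSP1, for example, went from 554 and 458 units in parental cells to 1970 and 1980 in S1a and 1340 and 1440 in S1b. All 5 shared the order of groups seen for IL1B, with the S1b mean between parental and S1a, which follows largely from picking them by distance to IL1B.

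The profile of IL1R1 had closer neighbours. They were LY6E (a membrane-anchored protein, distance 0.22), LITAF (a lysosomal membrane protein, 0.29), HLA-G (0.38), DSP (desmoplakin, 0.39) and PON2 (a paraoxonase, 0.41). LITAF gave 1990 and 2150 units in parental cells, 459 and 449 in S1a and 323 and 341 in S1b. The HLA-G probe set can share probes with related class I genes. Likeness over 6 arrays describes these signals only.

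**Figure D3:**
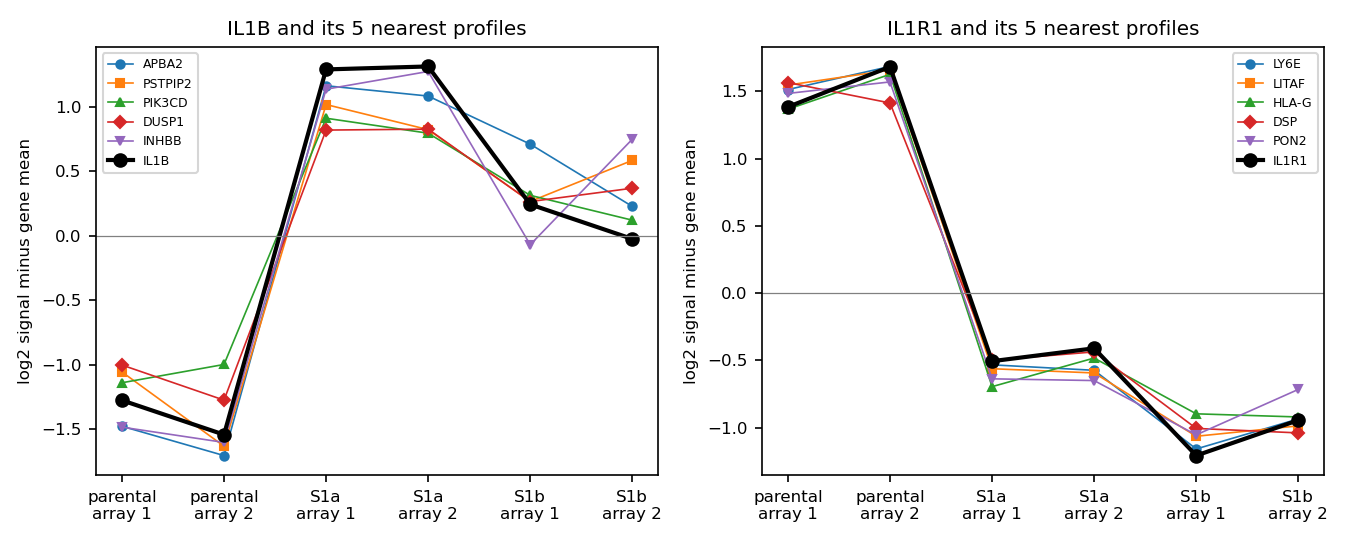
Log2 signal minus the gene's own mean on each of the 6 arrays for IL1B (left, black) and IL1R1 (right, black) and the 5 genes nearest to each. The IL1B group is lowest on the parental arrays and highest in S1a, and the IL1R1 group is highest on the parental arrays.

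Several members lie on chromosome 2. IL1A, IL1B and IL1RN lie there in a cluster of 9 ligand genes, of which 7 were on the array, and IL1B alone was above 44 units. IL1R1 lies in a cluster of 6 receptor genes on the same chromosome, all on the array, and it too was the single one above the limit. Genes outside these clusters were not examined.

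The rest of the pathway was read from 6 lists with 90 genes, of which 75 were on the array and 48 were above the limit. In the isolate mean against parental, 10 of these 48 rose and 13 fell, which is 47.9% beside the 46.2% of all genes. Their median log2 difference was -0.025, beside -0.026 over all genes. The lists were compiled with earlier results of these arrays known, among them those of CXCL1, CXCL8, IL6, MMP1 and BCL2A1. The counts of each list against parental are therefore a description, to be read beside 22.7% higher and 23.5% lower over all genes.

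None of the 5 other ligands on the array could be tested. IL36B and IL1F10 had no named probe set. IL33, IL36A, IL36G, IL36RN and IL37 each had a mean under 44 units, and the highest single value was 59.5 units, for IL36A on parental array 1. Of 9 other receptors and binding proteins, 2 were tested. IL1RAPL1, a neuronal relative of IL1RAP, fell by 0.74 ± 0.15 on the log2 scale (SE, limma adjusted p = 0.00297), from 302 and 260 units to between 159 and 170. SIGIRR, an inhibitory receptor of the family, gave 0.053 ± 0.17 (limma adjusted p = 0.815). The decoy receptor IL1R2, the interleukin 33 receptor IL1RL1, IL1RL2, both interleukin 18 receptor chains IL18R1 and IL18RAP, the binding protein IL18BP and IL1RAPL2 were under the limit.

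Among 9 tested adaptors, kinases and ubiquitin enzymes below the receptor, 2 rose and 7 did not pass (median 0.0051). PELI1, a ubiquitin ligase of the Pellino family that acts on IRAK proteins, rose by 1.09 ± 0.11 (limma adjusted p = 4.44e-05), from 203 and 203 units to 423 and 431 in S1a and 434 and 465 in S1b. ECSIT, an adaptor of TRAF6, rose by 0.33 ± 0.12 (limma adjusted p = 0.0441). The ECSIT call ended without any 1 of the 6 arrays and in 3 further alternatives (highest limma adjusted p = 0.114). TRAF6, the ubiquitin ligase that joins IRAK kinases to TAK1, gave -0.34 ± 0.19, and MAP3K7, which encodes TAK1, gave 0.33 ± 0.14. MAP3K7 passed with quantile normalization (0.38), with median centring (0.52), without parental replicate 1 (0.44) and without S1b replicate 1 (0.45).

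Of 7 IKK and stress kinases, 2 fell and 5 did not pass (median -0.15). IKBKG, the regulatory IKK subunit NEMO, fell by 0.49 ± 0.13 on the log2 scale (limma adjusted p = 0.0131). MAPK9, a JNK kinase, fell by 0.28 ± 0.075 (limma adjusted p = 0.0114). Both calls ended with median centring, at -0.3 and -0.093, that of IKBKG also without parental replicate 1 (limma adjusted p = 0.0712) and that of MAPK9 with the mean of its probe sets (-0.2, limma adjusted p = 0.104). The catalytic subunits CHUK (0.25 ± 0.1) and IKBKB (-0.18 ± 0.12, with probe sets that disagree in sign, and 0.0083 with median centring) did not pass, and CHUK did with median centring (0.44).

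Genes for processing and release of the ligands moved in both directions, with 2 of 15 up, 5 down and 8 not past the threshold (median -0.069). The inflammasome sensor AIM2 fell by 2.55 ± 0.27 on the log2 scale (limma adjusted p = 5.41e-05), from 437 and 345 units to between 48 and 90.8 in the isolates. The sensor NLRP3 rose by 1.26 ± 0.24 (limma adjusted p = 0.00199), from 45 and 65 units to 164 and 177 in S1a and 97.1 and 118 in S1b. Its value was 1.01 with the mean of its probe sets, where the call ended (limma adjusted p = 0.0631). NEK7, a kinase that binds NLRP3, fell by 0.45 ± 0.071, and CAPN2, a subunit of the calpain protease that cuts the IL1A precursor, fell by 0.52 ± 0.098. The other 3 calls, named after their values were seen, were a rise of the inflammatory caspase CASP4 (0.81 ± 0.17) and falls of the channel PANX1 (-0.89 ± 0.17) and of CAPN1 (-0.79 ± 0.17). CASP1, which cuts IL1B and IL18, gave 0.31 ± 0.26 and its adaptor PYCARD -0.28 ± 0.14, and neither passed.

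Of 15 tested genes known to be induced by interleukin 1, 6 rose, 5 fell and 4 did not pass (median 0.53, beside -0.026 over all genes). Over all genes 22.7% rose and 23.5% fell. As results of some listed genes were known beforehand, nothing is read from these counts. The collagenase MMP1 rose by 4.61 ± 0.077, the survival gene BCL2A1 at least 12.3-fold, and the chemokine genes CXCL1 and CXCL8 by 2.93 ± 0.12 and 1.69 ± 0.084. These genes and IL6 were listed with their results known, so their differences from parental are a description, with no p-value. The adhesion molecule ICAM1 fell (limma adjusted p = 0.00371), from 192 and 154 units in parental cells to 103 and 77.2 in S1a, and to under the limit of 44 units on both S1b arrays. Its mean signal was 3.36-fold lower in the isolates, in part from the S1b signals under that limit. S1a by itself did not pass against parental for ICAM1 (-0.92 ± 0.57, limma adjusted p = 0.224). The remaining 6 calls were named after their values were seen. MMP3 (at least 1.42-fold) and CXCL3 (0.87 ± 0.26) rose, and IL6 (-2.34 ± 0.29), the prostaglandin E synthase PTGES (-1.27 ± 0.2), IER3 (-0.89 ± 0.11) and the NF-kappa B inhibitor NFKBIA (-0.75 ± 0.1) fell. The CXCL3 call ended with no filter, or when parental replicate 2, S1a replicate 2 or S1b replicate 1 was left out, and the MMP3 call without S1a replicate 2 or S1b replicate 1 (highest limma adjusted p = 0.0816).

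Between the isolates, 4 of the 48 pathway genes passed, 1 higher and 3 lower in S1b (8.33%, beside 1.89% of all genes). All 4 were in the list of genes known to be induced by interleukin 1. As MMP1 and CXCL8 were listed with results of these arrays known, nothing is read from that share. The p-values of MMP1 and CXCL8 between the isolates may likewise not be independent of that choice. MMP1 was higher in S1b by 0.88 (limma adjusted p = 0.00125), with 6670 and 6530 units in S1a and 12000 and 12200 in S1b. CXCL8 was lower by a log2 difference of -0.46 (limma adjusted p = 0.0472), with 1990 and 1920 units against 1330 and 1510. ICAM1 was lower in S1b, with 103 and 77.2 units in S1a and 3.26 and 23.2 in S1b, at least 2.04-fold (limma adjusted p = 0.0459). PTGES, named after its values were seen, was lower by -1.08 (limma adjusted p = 0.0478), with 253 and 302 units in S1a and 99.6 and 167 in S1b. The MMP1 call ended with no variance trend alone (limma adjusted p = 0.116). The CXCL8, ICAM1 and PTGES calls ended there too, and with no filter, with quantile normalization, with the mean of a gene's probe sets, and on leaving out S1a replicate 1, S1a replicate 2 or S1b replicate 1. CXCL8 also lost its call with median centring and without S1b replicate 2, and ICAM1 with a pseudocount of 1 unit. The fitted log2 difference of ICAM1, which gives no size because both S1b arrays lay under the limit, was -2.73, against -1.44 when its probe sets were averaged and -1.78 without S1b replicate 1. That of PTGES was -0.71 without S1b replicate 1. In the lists other than this one, limma called 0 of 33 genes, and 3 had an unadjusted p under 0.05.

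**Figure D4:**
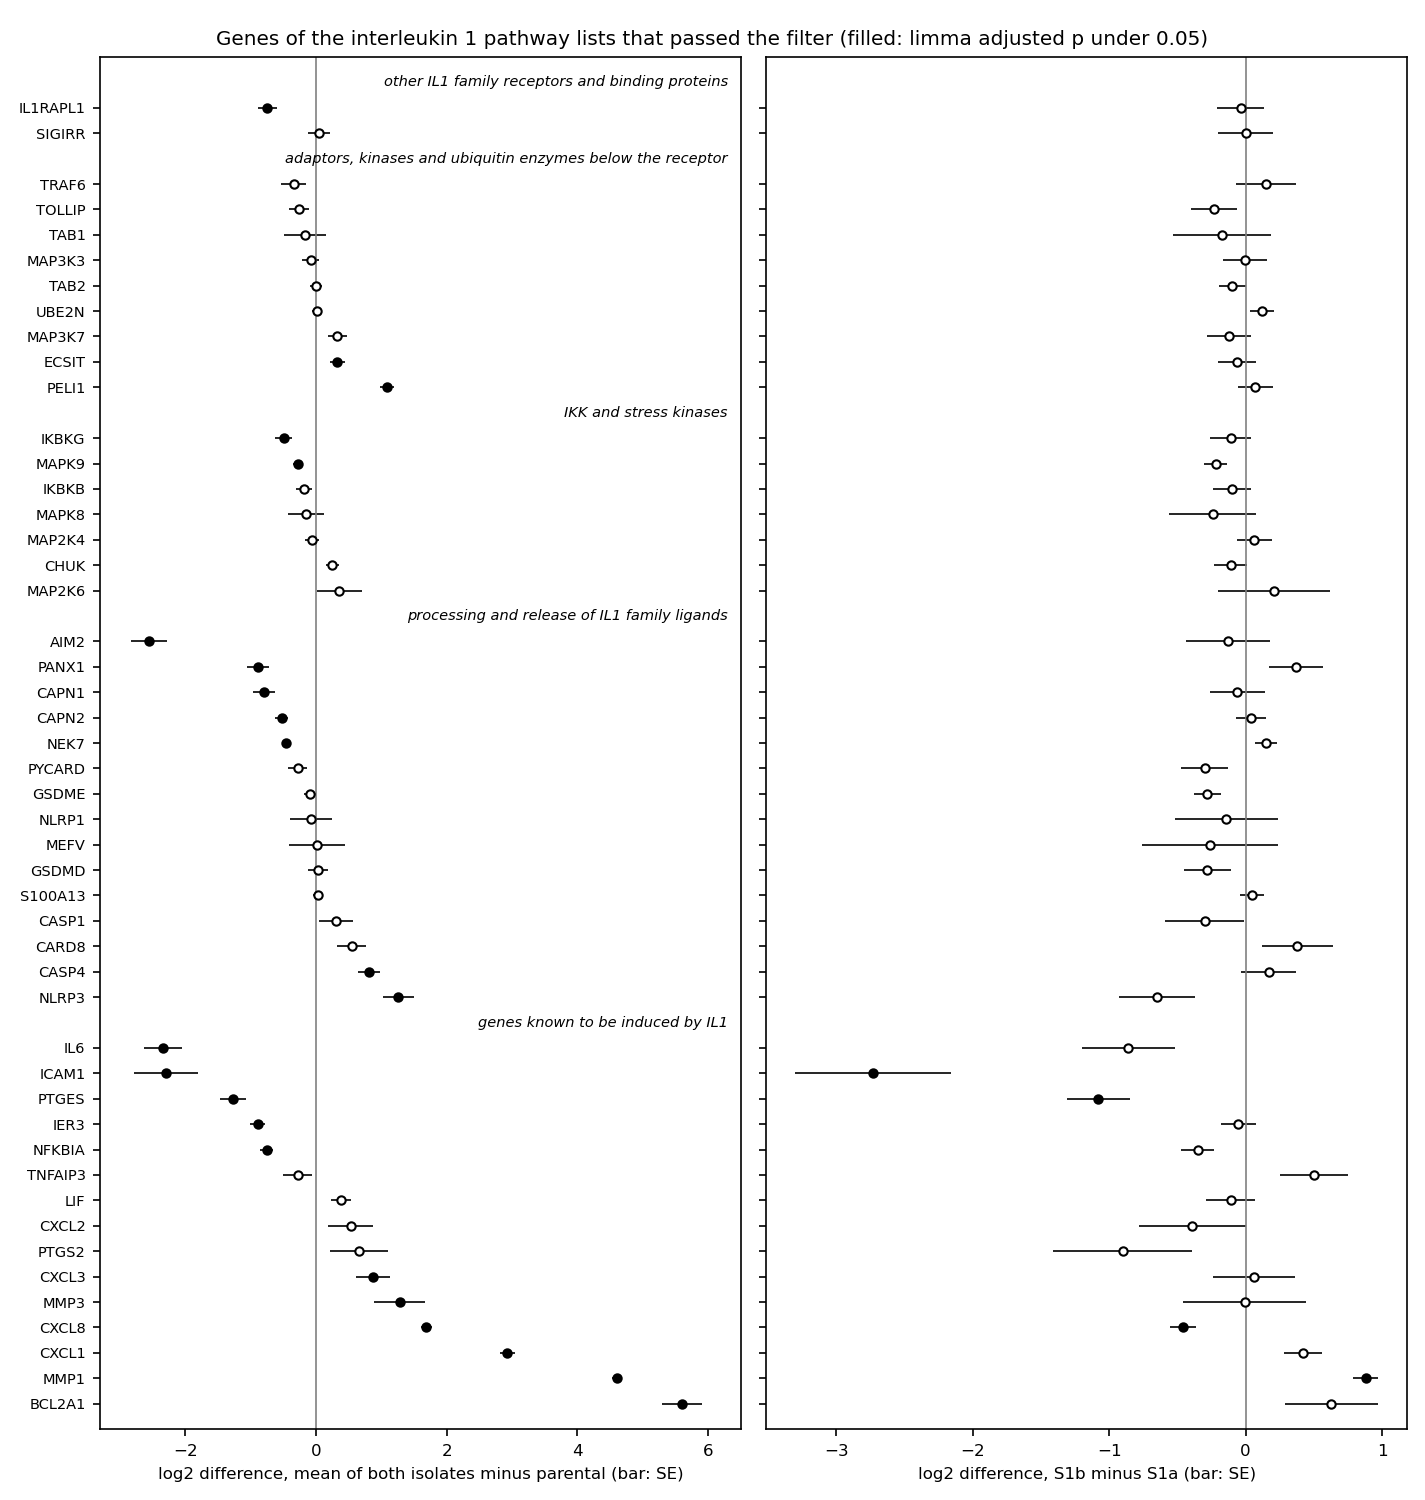
Log2 difference of the mean of both isolates minus parental (left) and of S1b minus S1a (right) for the 48 pathway genes above the limit, by list (points, bars are the SE; filled where the limma adjusted p is under 0.05). On the left filled points lie on both sides of 0, from AIM2 at -2.55 to BCL2A1, and on the right only ICAM1, PTGES, CXCL8 and MMP1 are filled.

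Of 9 markers chosen for the line, 7 had a mean above 44 units. VIM gave 18400 to 27200 units, CD44 6810 to 8340, KRT18 7730 to 12900 and EPCAM 346 to 495, while CDH1 and PGR were under 44 units on all 6 arrays. KRT8 was lower in the isolates, with 2660 and 2560 units in parental cells, 974 and 1080 in S1a and 791 and 697 in S1b. ERBB2 and ESR1, whose proteins a triple-negative line lacks or does not overexpress, gave 147 to 258 and 18.3 to 82.1 units. Macrophages are a known source of IL1B. Of 10 leukocyte markers on the array, CD14 alone had a mean above 44 units. PTPRC, which marks all leukocytes, gave 13.8 to 34 units. The 10 summed to 332 to 345 units in parental cells, 170 to 232 in S1a and 150 to 170 in S1b. Of these 10, 6 lay under 44 units on every array, so the sums rest largely on signals near the floor. CD14, CSF1R and CD163 were lower on every isolate array than on both parental arrays, and the other leukocyte markers overlapped. The source of the IL1B signal was not tested. Endothelial markers summed to 97.1 to 150 units in parental cells, 177 to 195 in S1a and 143 to 146 in S1b, and fibroblast markers to 430 to 487, 400 to 410 and 313 to 332. Within the endothelial markers CDH5 was higher in the isolates (23.8 to 57.8 units against 7.32 and 3.4). VWF was lower (3.12 to 5.58 against 6.58 and 7.83), and KDR alone had a mean above 44 units. Within the fibroblast markers ACTA2 was higher in the isolates (114 to 200 units against 56.8 and 49.6) and COL1A2 (27.4 to 48.9 against 78.9 and 124) and LUM (0.161 to 1.16 against 51.6 and 34.8) were lower. The mean log2 signal of 27 spike-in probe sets was 7.12 and 7.75 in parental cells and 7.61 to 8.08 in the isolates, and GAPDH's 3' signal over its 5' signal was 1.06 and 1.09 against 0.976 to 0.998. The part of these shifts in the differences from parental cells was not tested.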

How the data were processed

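Per the submitters' processing notes MAS5 was used, with no version stated there, and the deposited values are linear intensities for each probe set of each array. None was below 0 and every array had a trimmed mean of 500.2. Of 22277 probe sets, 62 controls were left out, and 19064 of the rest had 1 gene symbol, 1043 several and 2108 none. Symbols were updated through a RefSeq table (GRCh38.p14), which also gave promoter sequences for 7 of the 8 members. No detection calls were used, so no probe set is called absent, and the number of arrays limits the precision.

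Signals were analysed as log2(signal + 3.949), the pseudocount being the 10th percentile. The probe set with the highest mean stood for a gene, and means below the 40th percentile (44 units) were left out, which left 7791 genes. limma 3.58.1 in R 4.3.3 fitted 3 group means to all 6 arrays, with a variance trend (7 prior and 3 residual degrees of freedom), and p-values were adjusted over all genes by Benjamini-Hochberg within a contrast, at a threshold of 0.05. Intervals are 95%, unadjusted. "At least" marks a fold with the dimmer mean set to 44 units. The members, lists and rules were chosen with earlier results of these data known. Named by rule were all members, up to 4 genes per list by p-value against parental, up to 2 between the isolates, and the 5 nearest profiles of IL1B and IL1R1.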

Additional observations from a re-analysis of the deposited data

Results flagged for a closer look

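The difference from parental cells was not the same in both isolates for 5 of the genes described, by the test of S1b against S1a itself. IL1B differed by -1.19 on the log2 scale, with a larger excess over parental cells in S1a. CXCL8 differed by -0.46 in the same direction, and PTGES by -1.08, lower against parental cells in S1b than in S1a. ICAM1 had a fitted difference of -2.73, which rests on S1b signals under 44 units, so that S1a was at least 2.04-fold above S1b and no exact size is given. MMP1 differed by 0.88, with the larger excess in S1b. Groups of 2 arrays allowed no search for single arrays that stand apart.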

How the results depend on the processing

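Apart from the member differences from parental, there were 1112 single-gene values under the alternatives. They include the differences of CXCL1, CXCL8, IL6, MMP1 and BCL2A1 from parental, which are described only. Of the 1112, 1026 kept their direction and their side of the threshold. A further 52 lost a call, 10 gained one and 24 changed sign, of which 0 passed in either setting. Against parental these were IKBKB with median centring (0.0083) and with the mean of probe sets (0.0053), and SIGIRR, which ran from -0.072 to 0.18 with 1 array left out. Between the isolates they were CAPN2 with quantile (-0.08) and cyclic loess normalization (-0.029), MMP3 with quantile normalization (0.012) and NLRP3 with the mean of probe sets (0.027). The others came from leaving out 1 array between the isolates, where MYD88 ran from -0.053 to 0.12, IL1RAPL1 from -0.084 to 0.012, SIGIRR from -0.1 to 0.1, MAP3K7 from -0.35 to 0.11 and TRAF6 from -0.0089 to 0.31. IKBKG ran from -0.27 to 0.044, IKBKB from -0.2 to 0.0034, AIM2 from -0.57 to 0.3, CAPN2 from -0.023 to 0.1 and CAPN1 from -0.32 to 0.2. CXCL3 ran from -0.035 to 0.16, MMP3 from -0.32 to 0.31 and IER3 from -0.12 to 0.016. There were 104 member differences from parental, which are described only. Of these, 99 moved by less than the gene's largest log2 SD between replicates in any group, and 5 by more. Among these 104, 7 changed sign, all of IL1RAP (up to 0.35) or IRAK1 (up to 0.057). Without parental replicate 1, IRAK1 (-0.31) was counted among 4 members past the threshold, against 3 without each other array. In the isolate mean against parental, 2062 genes passed with probe sets of suffix _s_at or _x_at left out, and 3016 to 3295 with 1 array left out. S1a against parental gave 1731 with those suffixes left out and 1900 to 2920 with 1 array left out. S1b against parental gave 1895 and 2223 to 3151. These alternatives test fewer genes or use fewer arrays.

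S1b against S1a depended most on the settings. From 147 genes the count went to 63 with no filter, 60 with the mean of a gene's probe sets, 58 with the suffixes left out, 4 with no variance trend, 320 with array weights, 330 with only the groups compared and 64 under the replicate block, and ran from 22 to 343 with 1 array left out. Of the members, 0 passed with no variance trend (limma, 3 at an unadjusted p under 0.05), 2 probe sets, both of IL1B, with every probe set tested by itself, 2 with only the groups compared (IL1B and IL1RAP), and 0 to 2 with 1 array left out. Of the pathway genes, 4 passed, against 1 with no filter, with quantile normalization, with the mean of probe sets, with the suffixes left out and under the replicate block, 2 with every probe set by itself, 0 with no variance trend (6 at an unadjusted p under 0.05) and 1 to 4 with 1 array left out. The cause of these shifts was not tested. Median centring raised the share of higher among called genes in the isolate mean from 49.2% to 71.3%.

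Over all genes, same-numbered arrays did not deviate together (correlations of -0.005, -0.067 and -0.058 between the groups). A pairing that acts on some genes only cannot be seen in these correlations, and the labels name none. Under the replicate block the calls of CXCL8, ICAM1 and PTGES between the isolates were lost (limma adjusted p = 0.0964, 0.0807 and 0.0666). Median signals ran from 87.6 to 106 units, and values near 44 units are least reliable.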

Other observations

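IRAK3, a relative of IRAK1 that restrains this pathway, was under the limit of 44 units in its mean and was not tested. Its signal was 16.2 and 1.53 on the parental arrays, 51.7 and 24.9 in S1a and 63.6 and 48.8 in S1b. All 4 isolate arrays lay above both parental arrays, and 3 of them were above 44 units. PELI2, a relative of PELI1, gave 41.5 and 24.9 in parental cells, 60.9 and 43 in S1a and 34 and 48.2 in S1b, with overlap between the groups.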
